A study of Mus musculus with 35 samples.

Results

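NELFA peaks at least 1 kb wide were 1600 of the 34846 peaks (4.59%) that lay on chromosomes 1 to 19 other than 6, 8 and 14 in a peak list of tagged NELFA in mouse embryonic stem cells, and the other 33246 peaks of these 16 chromosomes were narrower. The width was the difference between the deposited end and start, so the wide peaks were chosen by a measured value of the same list. The whole list held 59485 peaks. The ChIP-seq libraries came from E14 mouse embryonic stem cells that carried a doxycycline-inducible NELFA with a Strep and HA tag, grown in serum with LIF and 2i, and given doxycycline at 0.4 µg/ml for 16 h. Of 7 ChIP-seq libraries, 4 were immunoprecipitated, 3 with the antibody labelled HAantibody1 and 1, on replicate 3, with HAantibody2, and 3 were input chromatin. All 7 came from induced cells, so signal of the antibodies unrelated to the tag cannot be told apart from NELFA signal here. The 20 RNA-seq and 8 ATAC-seq libraries of the series were not used.

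NELFA is a subunit of the negative elongation factor NELF. With the factor DSIF, NELF holds RNA polymerase II in a paused state shortly after it has begun transcription, and the kinase P-TEFb releases it into productive elongation. NELF is therefore known mainly from sites just downstream of gene starts. The 2-cell-like state is a rare state of cultured embryonic stem cells in which genes of the 2-cell embryo, such as the Zscan4 cluster and copies of the MERVL retrovirus, are expressed. The deposited list held 1 value per peak and none per library. Peaks have no replicate error, neighbouring peaks share their source, and no test was made. Shares are given with 95% Wilson intervals, which cover counting error only and treat peaks as independent.

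Promoter sequences were read for the genes whose starts lay under a wide peak. RefSeq promoter windows of GRCm38.p6, the assembly also called mm10, gave 250 bases before an annotated start for 14105 of the 17645 protein-coding genes on the 16 chromosomes, with 1 window per gene at the start nearest its outer boundary. A wide peak covered 54 of these windows from end to end (0.383%), and a narrower peak covered 102 (0.723%). Only a peak of at least 250 bp can cover a window, and the median width of narrower peaks was 177 bp. Many narrower peaks could therefore not count here. Of the 54 windows, 45 lay in densely covered stretches of the genome, that is in 1 Mb windows with at least 30 peaks of any width, and 9 lay outside them. The first set below is shown because its 3 genes, for polyubiquitin (Ubb), prothymosin alpha (Ptma) and an arginine- and serine-rich protein (Rsrp1), represent widely expressed genes outside dense windows. The capitals mark GGGCGG or CCAAT boxes on either strand and, where present, TATAAA whose first base lies 40 to 20 bases before the start.
Ubb: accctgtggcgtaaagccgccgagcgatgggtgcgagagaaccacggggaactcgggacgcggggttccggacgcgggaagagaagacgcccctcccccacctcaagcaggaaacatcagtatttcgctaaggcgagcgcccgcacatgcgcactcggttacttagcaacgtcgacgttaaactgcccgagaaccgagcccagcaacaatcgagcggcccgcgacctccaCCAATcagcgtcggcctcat
Ptma: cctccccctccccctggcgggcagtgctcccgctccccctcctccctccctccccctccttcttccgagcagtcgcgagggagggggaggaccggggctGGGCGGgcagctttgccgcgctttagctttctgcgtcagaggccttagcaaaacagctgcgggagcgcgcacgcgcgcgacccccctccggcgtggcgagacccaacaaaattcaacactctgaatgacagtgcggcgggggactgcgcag
Rsrp1: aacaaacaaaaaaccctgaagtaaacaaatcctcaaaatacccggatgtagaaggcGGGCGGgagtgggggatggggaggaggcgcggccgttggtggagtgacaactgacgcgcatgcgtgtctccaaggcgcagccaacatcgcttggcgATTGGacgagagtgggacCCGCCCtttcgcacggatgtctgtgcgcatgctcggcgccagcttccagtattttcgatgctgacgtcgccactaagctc
The Ubb window lies at chr11:62550921-62551170 on the plus strand, the Ptma window at chr1:86526307-86526556 on the plus strand, and the Rsrp1 window at chr4:134923375-134923624 on the plus strand. They held 30, 23 and 22 CpG dinucleotides in that order, against a median of 10 over all 14105 windows. The median was 26 in the 102 windows inside narrower peaks. It was 22 in the 9 windows under wide peaks outside dense windows, among which Duxf3 had 2 and 4931408C20Rik had 0.

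The second set is shown because its genes belong to families of near-identical copies or carry the same stretch of bases, and all of its windows but that of Duxf3 lay in dense windows. Zscan4c and Zscan4f encode zinc-finger and SCAN-domain proteins of the 2-cell embryo, Sp110 encodes a nuclear body protein, Gm21293 and Gm3448 are predicted genes, and Duxf3 belongs to the double-homeobox Dux family.
Zscan4c: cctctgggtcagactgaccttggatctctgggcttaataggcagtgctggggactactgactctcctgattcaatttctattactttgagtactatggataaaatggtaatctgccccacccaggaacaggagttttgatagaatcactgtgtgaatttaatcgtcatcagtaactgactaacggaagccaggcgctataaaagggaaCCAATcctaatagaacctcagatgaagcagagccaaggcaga
Zscan4f: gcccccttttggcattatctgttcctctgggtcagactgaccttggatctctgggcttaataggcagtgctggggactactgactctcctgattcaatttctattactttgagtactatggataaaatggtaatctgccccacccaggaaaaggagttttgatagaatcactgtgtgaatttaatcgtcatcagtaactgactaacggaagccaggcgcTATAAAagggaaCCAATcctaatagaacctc
Sp110: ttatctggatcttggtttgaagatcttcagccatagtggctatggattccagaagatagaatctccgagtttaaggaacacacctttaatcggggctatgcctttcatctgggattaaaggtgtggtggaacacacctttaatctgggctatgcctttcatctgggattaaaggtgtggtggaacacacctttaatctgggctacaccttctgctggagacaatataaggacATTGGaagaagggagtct
Gm21293: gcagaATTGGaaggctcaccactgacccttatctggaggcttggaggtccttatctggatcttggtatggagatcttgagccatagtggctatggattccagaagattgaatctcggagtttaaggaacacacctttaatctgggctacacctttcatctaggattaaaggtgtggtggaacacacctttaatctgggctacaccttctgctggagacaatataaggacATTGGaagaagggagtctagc
Gm3448: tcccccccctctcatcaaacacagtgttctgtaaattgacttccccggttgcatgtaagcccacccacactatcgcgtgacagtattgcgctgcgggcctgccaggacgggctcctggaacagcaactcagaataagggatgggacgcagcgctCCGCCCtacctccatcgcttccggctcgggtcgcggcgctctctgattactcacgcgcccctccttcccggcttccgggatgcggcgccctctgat
Duxf3: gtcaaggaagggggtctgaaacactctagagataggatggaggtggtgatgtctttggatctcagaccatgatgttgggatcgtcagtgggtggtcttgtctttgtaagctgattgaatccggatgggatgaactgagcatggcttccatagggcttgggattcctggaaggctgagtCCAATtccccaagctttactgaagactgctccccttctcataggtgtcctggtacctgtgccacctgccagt
These windows lie at chr7:11005495-11005744 (Zscan4c, plus), chr7:11397665-11397914 (Zscan4f, plus), chr1:85603892-85604141 (Sp110, minus), chr10:104142737-104142986 (Gm21293, plus), chr17:15010185-15010434 (Gm3448, minus) and chr10:58233090-58233339 (Duxf3, minus). The Zscan4c and Zscan4f windows were identical at 226 of 227 bases once shifted by 23 bases. Only the Zscan4f window had TATAAA in the searched stretch, and the same letters stand outside that stretch in the Zscan4c window. Gm21293, Gm21304, Gm20765 and Gm8764 on chromosome 10 shared all 250 bases, and Gm21312 and Gm4340 differed from them at 1 base (G1C in Gm21312 against Gm21293, counted from the first base of the window). The windows of Gm3448, Gm3417 and the named gene Tcte3, all on chromosome 17 and under wide peaks, were identical.

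The Sp110 and Gm21293 windows shared an unbroken run of 86 bases close to the start, although the genes are on different chromosomes. Its last 40 bases read as follows.
Shared stretch: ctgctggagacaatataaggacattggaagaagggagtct
An exact copy stood in 10 of the 14105 windows (0.0709%), searched in the direction of transcription. A wide peak covered 7 of the 10, namely Sp110 with a fold enrichment of 13.1 and the 6 chromosome 10 copies Gm21293, Gm21304, Gm21312, Gm20765, Gm8764 and Gm4340 with 7.13 to 8.22. Of the other 3, Gm12790 lay under a narrower peak of 677 bp with a fold of 4.54, Pramel17 met only narrower peaks of at most 95 bp and a fold of at most 1.91, and Arih2 met no peak. The stretch was picked after the sequences had been compared, from windows that were read because a wide peak covered them. The 6 chromosome 10 windows are also near-identical copies. The 7 of 10 is therefore a description, and no evidence of enrichment over the 0.383% of all windows under a wide peak.

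Across the 9 windows outside dense windows, 5 held a GGGCGG box and 4 a CCAAT box, and the median content of G and C was 62.8%. In the 45 windows of dense stretches, 12 (26.7%) held GGGCGG and 27 (60%) held CCAAT, with a median G and C content of 48%. Windows inside narrower peaks held GGGCGG in 63.7% and CCAAT in 27.5%, with 67.4% G and C. All windows together held them in 43.9% and 36.6%, with 56% G and C. TATAAA in the searched stretch was present in 1 of the 54 windows under wide peaks, 4 of the 102 under narrower peaks and 2.9% of all windows. The heat shock element GAANNTTC, which reads alike on both strands, was found in 4 of the 54, 3 of the 102 and 5.97% of all windows, and in none of the 9. Several windows in dense stretches are copies of one another, so these shares do not count independent sequences.

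Widths of the wide peaks ranged from 1000 to 37707 bp with a median of 1469.5 bp, against 47 to 998 bp and a median of 177 bp in narrower peaks. Although few in number, the wide peaks covered 3.22 Mb, against 8.01 Mb for the narrower ones, so they held 28.7% of all covered bases. Their fold enrichment, the linear ratio of ChIP signal to background at the summit as the authors' peak caller gave it, had a median of 3.95 (quartiles 3.18 to 5.04, range 2.18 to 17.2), against a median of 2.13 (quartiles 1.95 to 2.50, range 1.17 to 27.3) in narrower peaks. Width and fold come from the same signal, so these values describe both groups and compare nothing independent. Within the wide group the median fold was 3.36 for the 505 peaks of 1000 to under 1250 bp, 3.72 for the 335 up to 1500 bp, 3.99 for the 341 up to 2000 bp, 4.76 for the 350 up to 5000 bp and 5.45 for the 69 of at least 5000 bp. Of the 1006 peaks with a fold of at least 5, 413 were wide (41.1%), and of the 91 with a fold of at least 10, 22 were wide (24.2%).

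**Figure D1:**
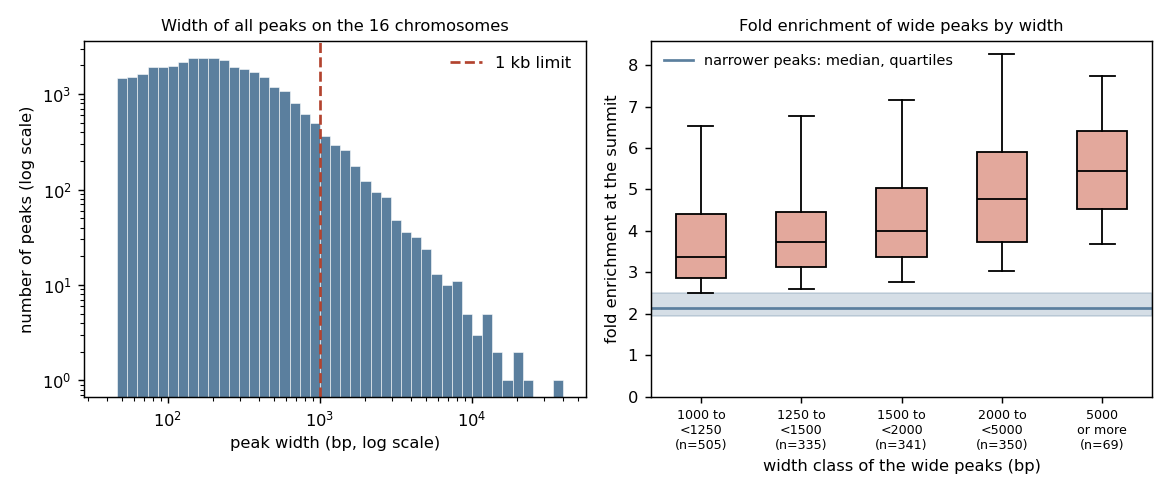
Left, number of peaks by width in bp on the 16 chromosomes, both axes on log scales, with the 1 kb limit dashed. Right, fold enrichment of wide peaks by width class (box, quartiles with the median; whiskers, 5th to 95th percentile), with the narrower peaks' median and quartiles as a line and band. Medians ran from 3.36 in the narrowest class of wide peaks to 5.45 in the widest, against 2.13 in narrower peaks.

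No gap in the widths set the wide peaks apart. Just inside the limit, 4 peaks were exactly 1000 bp wide. Of these, 3 lay beside the vomeronasal pseudogene Vmn2r-ps51 (fold 3.31), at Ubb (6.08) and in Ttc28 (3.40). The 3 widest below it measured 998, 998 and 997 bp, at Gm30417 (fold 3.95), in the prion protein gene Prnp (4.08) and 9.33 kb from Gm33680 (3.45).

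Wide peaks stood close to other peaks. Another peak of any width lay within 5 kb of 1529 wide peaks (95.6%, 94.4 to 96.5), against 24081 narrower peaks (72.4%, 71.9 to 72.9), and within 1 kb of 92.6% of wide and 57.1% of narrower peaks. The median gap to the nearest peak was 158 bp for wide peaks and 619 bp for narrower ones. When peaks with gaps under 1 kb were joined, the wide peaks fell into 826 joined regions with a median length of 6114 bp and a median of 6 peaks, which also took in 5108 narrower peaks (15.4% of these). Only 118 wide peaks stood alone in their region. Conversely, 2489 of the 3315 joined regions of at least 1 kb contained no wide peak.

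Dense 1 Mb windows held 1140 of the wide peaks (71.2%, 69.0 to 73.4), against 13487 of the narrower ones (40.6%, 40.04 to 41.1), a difference of 30.7 points (28.4 to 32.9). The share was 62.6% in wide peaks under 1250 bp and 92.8% in those of at least 5000 bp. Wide peaks were present in 462 windows, 288 of which had a single one, while 34 windows with 10 or more held 909 of them (56.8%). The fullest were chr4:147000001-148000000 with 108 wide peaks, chr4:146000001-147000000 with 84, chr1:85000001-86000000 with 64, chr4:145000001-146000000 with 59 and chr17:6000001-7000000 with 50. These windows hold clusters of related genes, including zinc-finger genes of the Zfp series on chromosome 4 and the speckled protein genes Sp110 and Sp140 on chromosome 1. Chromosome 4 alone carried 312 wide peaks (19.5%), against 10.0% of narrower peaks. Chromosome 19 carried 15 (0.938%), against 2.08% of narrower peaks. How the authors' processing placed reads that align to several copies is not given in the sources used here (peak names hold an unexplained tag MAPQ0), so for a copied gene the copy from which the reads came cannot be told apart.

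**Figure D2:**
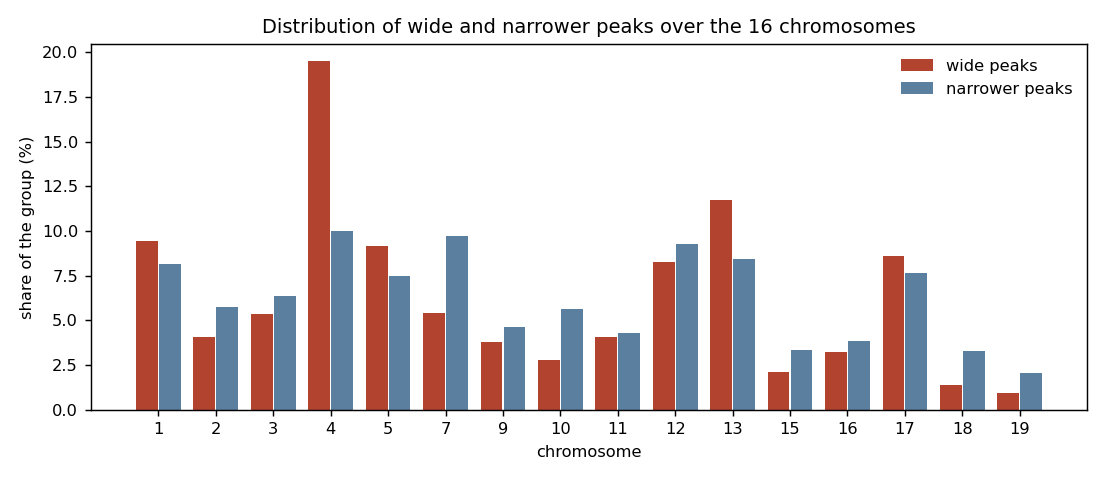
Share of the 1600 wide and of the 33246 narrower peaks (in %) on each of the 16 chromosomes. Chromosome 4 held 19.5% of wide and 10.0% of narrower peaks, and chromosome 19 held 0.938% and 2.08%.

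Joining wide peaks with gaps under 5 kb gave 804 runs, of which 534 were single peaks, and 270 runs of at least 2 held 1066 of the wide peaks (66.6%). The longest run, at chr13:12762835-12970477, was 207.6 kb long and held 30 wide peaks that covered 94.7% of it, with folds of 2.68 to 6.26. It includes Prl2c3, a prolactin-family gene, the pseudogenes Gm18262, Gm2544 and Gm18878 and the long noncoding RNA gene Gm40904. The run at chr17:6408903-6546311 was 137.4 kb long with 38 wide peaks over 79.2% of it, and includes the dynein light chain gene Dynlt1b and the pseudogene Tmem181b-ps. Next came chr4:147228248-147311035, a run 82.8 kb long with 21 wide peaks that includes the zinc-finger genes Zfp978 and Zfp988. The run at chr12:20244058-20301994 was 57.9 kb long with 15 wide peaks and includes Gm32719 and Gm9269. The run at chr17:14961359-15014233 was 52.9 kb long with 16 wide peaks and includes Gm3417, Gm3448, Gm3435 and 9030025P20Rik.

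Of the 10 widest peaks, 5 lay in the run with Prl2c3. The widest was 37707 bp at chr13:12869951-12907657, 4.79 kb from Gm18878 and with a fold of 4.81. The next 3, of 22248, 21113 and 20987 bp, lay in the same chromosome 13 run nearest to Gm18262 (fold 6.26), Prl2c3 (4.99) and Gm40904 (4.63). A further one of 13132 bp lay 17.3 kb from Prl2c3 with a fold of 4.54. On chromosome 4, peaks of 16168, 15778, 15139 and 12646 bp lay outside genes nearest to Gm21978 (fold 6.40), Vmn2r-ps20 (5.30), Gm46898 (5.49) and Zfp978 (7.54). The remaining one, 13187 bp with a fold of 9.36, lay within Sfi1 on chromosome 11, which encodes a centrin-binding protein.

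The pileup, meaning the number of fragments stacked over a summit, and the background it was set against can be worked out from the deposited fold and −log10 p of a peak. This assumes the usual form of the caller, in which the fold is the pileup plus 1 over the background plus 1 and the p-value is an upper Poisson tail. A whole pileup then fitted within 0.002 on the −log10 p scale for 98.9% of wide peaks and 99.9% of narrower ones, so the values below are implied ones. The median implied pileup was 86 in wide peaks, against 46 in narrower ones. Most peaks in both groups had the same background of 21.03 fragments, the genome-wide value. A higher local background was implied for 230 wide peaks (14.4%, 12.7 to 16.2), against 315 narrower ones (0.947%, 0.849 to 1.06), and at least 2 times the genome-wide value for 47 wide peaks, against 93 narrower ones. It was above the genome-wide value in 7.52% of wide peaks under 1250 bp and 44.9% of those of at least 5000 bp. Of the 230, 100 lay on chromosome 4, and their median fold was 5.65, against 3.68 in wide peaks at the genome-wide background. None of the wide peaks in the chromosome 13 run with Prl2c3 or the chromosome 17 run with Dynlt1b was above the genome-wide value.

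Some wide peaks had far larger implied pileups. At chr2:98666256-98667365, 35.6 kb from Gm33780, the implied pileup was 327255 and the background 2109 times the genome-wide value, with a fold of 7.38. At the start of chromosome 9, the peak at chr9:3000025-3005173 had an implied background 1200 times the genome-wide value and a fold of 4.41. The wide peak within 2700054A10Rik on chromosome 17 had 19.7 times the genome-wide background. No whole pileup fitted within the tolerance at 17 wide peaks, these 3 among them, so their implied values are approximate. The same 17 wide peaks, most of them at the start of chromosome 9, were those with at least 10 times the genome-wide background. The part of local background in the width of a peak was not tested.

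**Figure D3:**
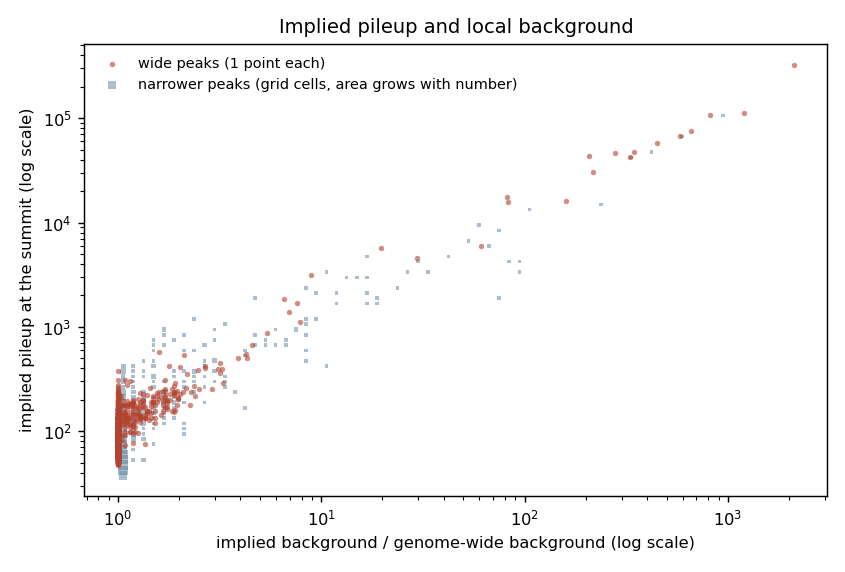
Implied pileup at the summit against implied background relative to the genome-wide value, both on log scales, with 1 point per wide peak and squares at the centres of grid cells for narrower peaks (area grows with their number). Most of both groups stand at the genome-wide background, and 230 wide peaks, against 315 narrower ones, lie above it, up to 2109 times.

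By position, 257 wide peaks had their summit within 1 kb of the start or end of an annotated gene of any kind (16.1%, 14.3 to 17.9), against 4807 narrower peaks (14.5%, 14.1 to 14.8), a difference of 1.60 points whose interval ran from -0.156 to 3.52. The interior of a gene held 39.8% of wide and 34.2% of narrower summits (difference 5.53 points, 3.10 to 8.00), and 44.2% of wide and 51.3% of narrower summits lay between genes (difference -7.13 points, -9.61 to -4.63). At protein-coding genes alone the boundary share was 7% in wide peaks, against 9.40% in narrower ones (difference -2.40 points, -3.59 to -1.01). The kind of gene was read from overlap of the whole interval and not from the summit. A longer interval meets more features, so the following shares do not compare wide and narrower peaks on equal terms. Pseudogenes were overlapped by 12.1% of wide peaks, against 4.32% of narrower ones. Protein-coding genes with Gm, LOC, Rik or clone names were overlapped by 8.5%, against 3.50%. Protein-coding genes with other names were overlapped by 29.4% of wide and 30.5% of narrower peaks, a difference of -1.06 points (-3.30 to 1.27).

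The boundary share depended on where the peaks lay. Within dense windows it was 19.2% in wide peaks (17.0 to 21.6), against 15.7% in narrower ones (15.1 to 16.3). Outside them the order was turned, with 38 of 460 wide peaks at a boundary (8.26%, 6.08 to 11.1), against 2690 of 19759 narrower ones (13.6%, 13.1 to 14.1). Outside dense windows 41.7% of wide summits lay in the interior of genes (37.3 to 46.3), against 32.0% of narrower ones (31.4 to 32.7). The narrowest class, 1000 to under 1250 bp, supplied 24 of those 38 boundary peaks.

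**Figure D4:**
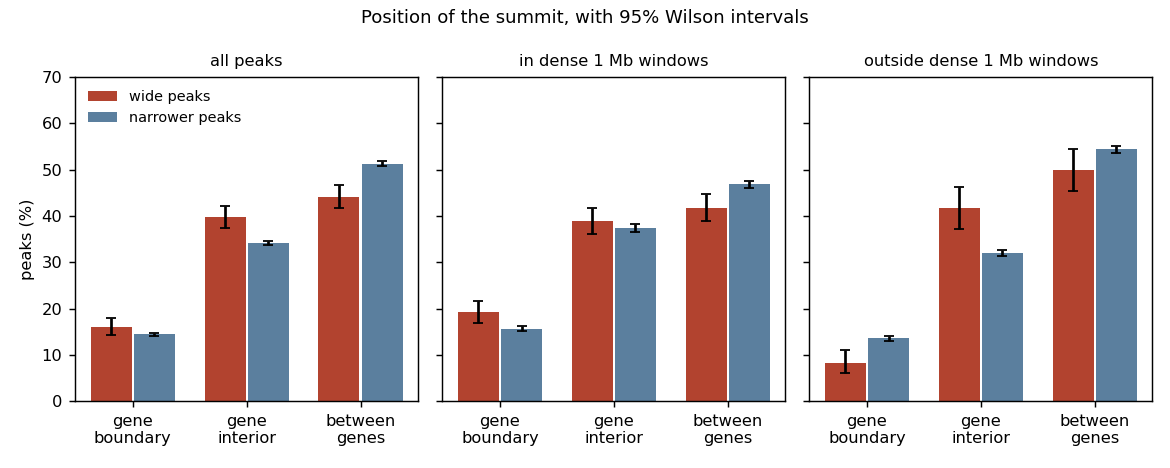
Share of wide and narrower peaks (in %, with 95% Wilson intervals) whose summit lay at a gene boundary, in a gene interior or between genes, for all peaks, in dense 1 Mb windows and outside them. Wide peaks had the higher boundary share in dense windows (19.2% and 15.7%) and the lower one outside them (8.26% and 13.6%).

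A wide peak stood at a boundary of 115 of the 17645 protein-coding genes (0.652%), and a narrower peak at 2771 (15.7%). The 115 genes shared 99 wide peaks, and 33 of the genes had Gm, LOC, Rik or clone names. Outside dense windows there were 25 such genes with 24 wide peaks, whose folds ran from 3.13 to 8.53. They included genes of protein folding and turnover, translation, RNA processing and the cytoskeleton. The strand was known for 18 of the 25. For 14 of these the boundary was the gene start (77.8%, 54.8 to 91.0), against 1667 of 1785 genes with a narrower peak (93.4%, 92.1 to 94.5). At those 14 starts 11 summits lay inside the gene, with a median of 111.5 bp downstream of the start, against 1270 of 1667 inside for narrower peaks (76.2%) and a median of 103 bp. The wide interval reached a median of 779.5 bp into the gene and 294.5 bp before it. In dense windows the nearer boundary was the start for 46 and the 3′ end for 30 of the genes with a known strand.

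The highest fold among them was at Hsp90aa1, which encodes the stress-inducible cytosolic HSP90 chaperone, with a wide peak at chr12:110695798-110696877, a fold of 8.53 and an implied pileup of 187. Hsp90ab1, its constitutively expressed relative, had a peak at chr17:45572363-45573590 with a fold of 4.99. Ubb, for a polyubiquitin precursor, had a fold of 6.08 at chr11:62550803-62551802, with the summit 396 bp downstream of the start.

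Genes of protein synthesis came next. Eif5a, for the hypusine-bearing translation factor, had a fold of 6.94 at chr11:69920869-69921938, an interval that lay within the gene from 20 bp to 1089 bp downstream of its start. Eef1a1, for the translation elongation factor that delivers aminoacyl-tRNA, had a fold of 5.08 with the summit 99 bp downstream of the start. Rrs1, for a regulator of ribosome assembly, had a fold of 5.31 at the summit, and the peak interval covered 55.3% of the gene. Pabpc1, for the cytoplasmic poly(A)-binding protein, had a fold of 3.99.

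Of the others, Rsrp1 had a fold of 5.31 with the summit 26 bp downstream of the start and Ptma 4.90 with the summit 235 bp downstream. The divergent neighbours Ddx5, for an RNA helicase, and Cep95, for a centrosomal protein, shared a peak with a fold of 4.99 at chr11:106788201-106789275. The adhesion receptor gene Adgrf2 had a fold of 7.35 with the summit 540 bp outside the gene, and 4931408C20Rik had 5.17. The peak assigned to the tRNA methyltransferase gene Trmt10b (4.95) ended 671 bp before its start, and that of the zinc transporter gene Slc30a4 (5.04) lay at its 3′ end.

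**Figure D5:**
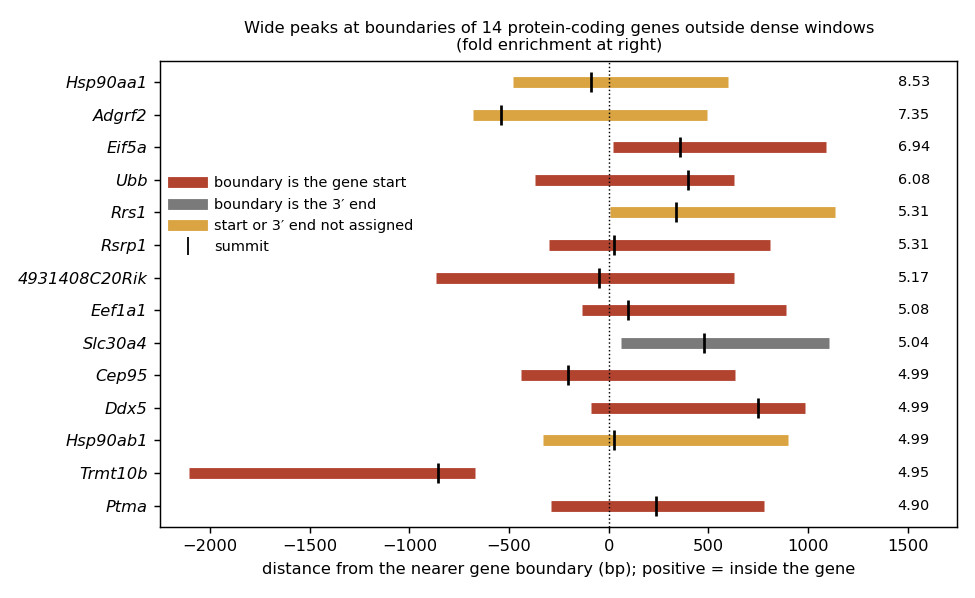
Extent of the wide peak (bar) and its summit (tick) relative to the nearer gene boundary in bp, positive inside the gene, for 14 protein-coding genes outside dense windows with high folds, given at right. Most bars span the boundary, while the bar of Trmt10b ends 671 bp before the start.

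Gene lists were read against the 0.652% of all protein-coding genes with a wide boundary peak. Members of these lists often lie side by side and can share a peak. In the histone list 7 of 74 genes (9.46%, 4.66 to 18.3) had one, from 4 wide peaks on chromosome 13, against 57 with a narrower peak. The strongest covered the whole of H2ac24 and H4c18 with a fold of 10.8, another covered H2ac23 and met the start of H2bc23 (5.99), a further one covered the linker histone gene H1f2 (5.54), and the last lay over the neighbouring starts of H2ac8 and H2bc8 (4.13). No histone gene with a wide peak lay outside dense windows. In the heat shock list the 2 HSP90 genes were the members with wide peaks of 18 (11.1%, 3.10 to 32.8), and 15 of 18 had narrower ones. In the translation factor list 3 of 21 had one (Eif5a, Eef1a1 and Pabpc1), against 15 with a narrower peak. None of 77 cytosolic ribosomal protein genes had a wide peak at a boundary (upper limit 4.75%), which is close to the share of all protein-coding genes, and 66 had a narrower one.

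No wide boundary peak was found either in the 24 genes of the NELF and pausing list (14 with a narrower peak), the 18 pluripotency genes (5), the 10 glycolysis genes (5), the 15 immediate early genes (4) and the 1028 olfactory receptor genes (11). In that order the upper limits were 13.8%, 17.6%, 27.8%, 20.4% and 0.372%, against 0.652% of all protein-coding genes. All but the olfactory list are too short for the absence to say anything about their genes. A narrower peak stood at 15.7% of all protein-coding genes. Of 13 actin and tubulin genes only Cfl1, for the actin-severing protein cofilin, had one (fold 4.36), and of 22 splicing and RNA-binding genes only Ddx5, while 19 of those 22 had a narrower peak. In 290 vomeronasal receptor genes the single one was Vmn1r57 (3.18).

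In the list of 2-cell-state genes 8 of 36 had a wide peak at a boundary (22.2%, 11.7 to 38.1), against 21 with a narrower one, and all 8 lay in dense windows. They were Gm5662 (fold 9.76), Gm4027 (6.40), Sp110 (5.17), Gm2022 (3.77), Zscan4f (3.54), Zscan4d (3.45), Zscan4c (3.36) and Tdpoz3 (3.18). The wide peak of Zscan4f was 5057 bp long and ran over nearly the whole gene, while those of Zscan4d and Zscan4c were 1837 and 1707 bp long and lay at the start. The peak with the higher fold at Sp110 (13.1, width 3659 bp) had its summit in the interior, counted from the outer boundaries of the gene. This summit, at chr1:85603878, lay close to the annotated start behind the promoter window printed above, whose edge at the start is chr1:85603892. The list was drawn up with earlier results of these data known, and its members are largely copies, so the count is no independent evidence of enrichment. Duxf3 belongs to the same cell state, and a wide peak with a fold of 7.44 covered its promoter window. The implied local background of this peak was 2.68 times the genome-wide value. Of 17 regulators of the 2-cell-like state only Trim28, the corepressor recruited by KRAB zinc-finger proteins, had a wide boundary peak (4.77).

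Zinc-finger genes of the Zfp series had wide boundary peaks in 11 of 339 (3.24%, 1.82 to 5.72), against 70 with a narrower peak, and none lay outside dense windows. The highest was Zfp640 on chromosome 13 (7.70), and the next 5 were Zfp982 (6.45), Zfp990 (5.49), Zfp978 (5.46), Zfp984 (5.36) and Zfp979 (5.04) on chromosome 4. Of 10 Speer genes, a testis-expressed glutamate-rich family on chromosome 5, Speer4e (8.85), Speer4c (5.95) and Speer4d (5.53) had one. The tandem gene models on chromosome 10 around the promoter copies printed above, which were singled out after their values were seen, had wide peaks with folds of 7.13 to 7.67 at the starts of Gm21293, Gm21304, Gm21312, Gm20765 and Gm8764 and of 6.81 at a boundary of Gm6763. At Gm4340, in the same array, a wide peak covered the promoter window with a fold of 8.22 and another lay at the 3′ end with 8.58.

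Genes for short noncoding RNAs, singled out after their values were seen, differed in how many had wide peaks. Over genes of every annotated kind, 271 of 39470 (0.687%) had a wide peak at a boundary, and 4159 (10.5%) a narrower one. Of the tRNA genes, whose transcripts are made by RNA polymerase III, 19 of 319 (5.96%) had a wide one and 48 (15.0%) a narrower one. These 19 shared 8 wide peaks. The strongest, at chr1:171063781-171065318 (fold 8.99), covered n-TEctc5 and n-TGtcc1 and lay beside n-TDgtc3. The next, at chr1:171065394-171066742 (8.12), covered n-TLcag6 and n-TGgcc12. The same order of tRNA genes recurred at further wide peaks of this stretch. The second of these peaks also met the start of Fcgr3, for an immunoglobulin G receptor. Of 803 small nuclear RNA genes 8 (0.996%) had a wide peak, among them Rnu2-10 (3.77) and Gm24950 (5.95) on chromosome 11. Of 993 microRNA genes 4 (0.403%) had a wide and 41 a narrower peak, and of 1102 small nucleolar RNA genes none had a wide and 163 a narrower peak.

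The 10 wide peaks with the highest folds were mostly at other kinds of site. The highest, 17.2 with an implied pileup of 378, was at chr5:33898557-33899569 within Nelfa itself, where it covered the microRNA hairpin Mir7024, and reads from the induced transgene cannot be told apart from reads of the endogenous gene there. The next were 16.8 in the pseudogene Gm20590, 16.6 at 5.57 kb from Aadac, 14.2 at the noncoding gene A530040E14Rik, 13.7 in 2700054A10Rik and 13.4 at 11.1 kb from Gm39469. They were followed by 13.1 in Sp110, 12.7 in Mepe, for a bone matrix protein, 12.2 in Gm39317 and 12.2 in Gm11735 (width 7794 bp). Of these 10, Nelfa, A530040E14Rik, Mepe and Gm11735 stood at the genome-wide background, while the implied local background was 19.7 times that value in 2700054A10Rik, 8.90 times at Gm20590, 6.57 times at Gm39469, 1.60 times near Aadac, 1.15 times in Gm39317 and 1.08 times in Sp110. None of the 10 had its summit within 1 kb of an outer boundary of a protein-coding gene. The summit in Sp110 lay close to the annotated start behind its printed promoter window, which is further inside the gene.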

How the data were processed

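ChIP-seq of tagged NELFA was represented by 1 deposited peak list in mm10 coordinates. Trim Galore 0.4.2, Bowtie2 2.2.9, SAMtools 1.4 and MACS2 are named, per the submitters' processing notes. Not given in the sources used here are the call settings, the pooling of libraries and the handling of reads with several alignments. The name of each peak holds R1234 and MAPQ0, which could refer to the pooled libraries and to a mapping quality limit, but no source used here explains them. The authors deposited for each peak a fold, which is a linear ratio, a score column, which was not used, and −log10 values of p and q, with −log10 q at least 1.31 in the authors' deposited table. Library depth is unknown, so no error of a single fold can be given.

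Peaks were split at a width of 1000 bp, and summits were placed against NCBI RefSeq genes of GRCm38.p6 as at a boundary (within 1 kb), in an interior or between genes. Intervals are 95% Wilson intervals, and differences of shares, wide minus narrower, carry Newcombe intervals. Values were described and not tested, since the list has no replicates. Named were the 10 widest and 10 strongest wide peaks, the 15 protein-coding genes other than Gm models with the strongest wide boundary peaks outside dense windows, up to 6 list members, the 5 longest runs and 3 peaks on either side of the limit. An item that the rule picks out is left unreported. Beyond this rule, and after their values were seen, the text names the other 2-cell-state and histone genes with wide peaks, the fullest 1 Mb windows, peaks with the highest implied backgrounds, the printed promoters and their copies, and noncoding RNA genes. The members and lists were chosen with earlier results of these data known. Only the recovery of implied pileups and the placing of summits at gene boundaries or interiors were tested on simulated data. The simulated pileups were far below the largest ones given above. Python 3.11.15 was run with matplotlib 3.10.9, scipy 1.17.1, pandas 2.3.3 and numpy 2.4.6.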

Additional observations from a re-analysis of the deposited data

How the results depend on the processing

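No paired analysis was possible because the list holds no value per library, and for the same reason no replicate could be left out and no depth is known. Of 59 alternative values, 20 stayed within the interval or 1.5-fold range of the reported one, 34 moved beyond it and 5 turned the direction of wide against narrower peaks. Limiting the narrower peaks by fold left the wide values unchanged, so the values of the 20 that came from it could not move. Causes were not tested. At a width limit of 750 bp there were 2635 wide peaks, 65.2% of them in dense windows, 93.0% with another peak within 5 kb, a median fold of 3.59 and 181 genes with a boundary peak. At 1500 bp these were 760, 80.5%, 97.8%, 4.45 and 54, with 41.4% between genes. At 2000 bp they were 419, 90.9%, 98.6%, 4.86 and 35, with 20.05% at a boundary and 41.8% between genes. A boundary window of 500 bp gave 10.9% at a boundary and 43.2% in an interior, and one of 2 kb gave 24.9%, 34.4% and, between genes, 40.7%. Without chromosome 4, which held more wide peaks than any other, 36.3% lay in an interior, 47.7% between genes and 66.1% in dense windows, and the median fold was 3.72. Dense windows of at least 60 peaks held 61.4%, and spacings of 20 kb and 1 kb gave 97.3% and 92.6%. Protein-coding boundaries gave 30.9% in an interior and 62.1% between genes, and outside dense windows 50% lay between genes and 25 genes remained to count. The boundary share fell below that of narrower peaks outside dense windows (8.26% and 13.6%), at protein-coding boundaries (7% and 9.40%) and against narrower peaks with at least the median fold of wide ones (16.1% and 20.5%). Against those peaks the share between genes was higher (44.2% and 42.7%), and with positions judged by overlap of the whole interval the interior share was lower (40.4% and 42.5%).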

Other observations

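On chromosomes 6, 8 and 14, which were left out of the groups above, the list held 172, 261 and 333 further peaks of at least 1 kb, and 207 more lay on X, Y and unplaced scaffolds, so the whole list held 2573.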
